A study of Mus musculus with 12 samples.

Results

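The DNA replication genes described here are 43 genes that license replication origins, unwind and copy DNA, supply nucleotides, rebuild chromatin behind the fork or control entry into S phase. They were taken as a fixed list of gene symbols, all 43 were found among the 53819 genes of the deposited mouse count table, and all 43 passed the filter on low counts that left 15698 genes for testing. RNA had been sequenced in bulk from stromal cell preparations of wild-type mice, in 4 groups of 3 libraries. BM sorted were marrow cells of the hind limbs and pelvis, plated on collagen I, passaged once and then flow sorted to keep cells with CD51 and Sca-1 and to discard those with CD31, CD45, Ly6C or F4/80. BM nonsorted were such cultures without the sort. BAC depleted were bone-associated cells, released from hind limb bone fragments with collagenase I and passed over magnets to withdraw CD45, Ly6C and F4/80 positive cells, and BAC nondepleted were bone-associated cells without that step. The depletion therefore took cells away without choosing stromal cells by a positive marker, while the sort did both. Marrow and bone-associated cells also differed in how they were obtained, so origin and isolation cannot be told apart in comparisons between them.

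A cell copies its genome once per division. In G1 phase the origin recognition complex, with Cdc6 and Cdt1, loads the ring-shaped MCM helicase onto DNA, and at the start of S phase Cdc45, the GINS complex and Mcm10 turn that ring into the active helicase. Primase and DNA polymerase alpha then start each new strand, and polymerases delta and epsilon, held on DNA by the sliding clamp PCNA, extend it, while ribonucleotide reductase and thymidine kinase provide the deoxynucleotides. Many of these genes are transcribed at the boundary of G1 and S phase by E2F factors, which the retinoblastoma protein family restrains until cyclins act, so their RNA is a common readout of proliferating cells in marrow, bone and elsewhere.

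The promoters of the list were searched for the letters of the E2F motif, and 4 are printed because their genes differed on depletion and in the matches they hold. Of the 43 genes, 35 had an entry in RefSeq's table of promoters (250 bases before to 50 after the annotated start, build GRCm38.p6), whereas the authors' build was GRCm39. Gins1, Gins2, Gins4, Mcm4, Pole, Prim2, Rfc2 and Ccne2 had none. The letters searched, on both strands and with overlaps counted, were TTTCCCGC, TTTGGCGC, TTTCGCGC and TTTGCCGC, which are forms of the E2F binding motif. At least 1 of them was present in 15 of the 35 genes (42.9%), against 704 of 27025 genes in the whole table (2.6%). The CCAAT box (CCAAT), searched the same way, was present in 20 of 35 (57.1%), against 41.1% of all genes. The upstream bases below run 5′ to 3′ on the gene's own strand, and capitals mark the E2F-type matches. They lie at chr8:75109259-75109508 (plus strand) for Mcm5, chr1:128359706-128359955 (minus strand) for Mcm6, chr8:95633309-95633558 (plus strand) for Gins3 and chr11:117826015-117826264 (minus strand) for Tk1.
Mcm5: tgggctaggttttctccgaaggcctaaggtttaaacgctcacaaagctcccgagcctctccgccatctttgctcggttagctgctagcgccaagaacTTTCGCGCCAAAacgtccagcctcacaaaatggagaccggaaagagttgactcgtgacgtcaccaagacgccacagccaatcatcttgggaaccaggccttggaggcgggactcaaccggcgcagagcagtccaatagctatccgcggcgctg
Mcm6: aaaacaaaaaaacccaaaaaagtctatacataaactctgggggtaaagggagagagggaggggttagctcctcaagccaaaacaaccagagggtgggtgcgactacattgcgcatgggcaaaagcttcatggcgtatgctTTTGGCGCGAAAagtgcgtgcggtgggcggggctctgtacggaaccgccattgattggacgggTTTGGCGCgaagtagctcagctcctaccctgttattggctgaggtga
Gins3: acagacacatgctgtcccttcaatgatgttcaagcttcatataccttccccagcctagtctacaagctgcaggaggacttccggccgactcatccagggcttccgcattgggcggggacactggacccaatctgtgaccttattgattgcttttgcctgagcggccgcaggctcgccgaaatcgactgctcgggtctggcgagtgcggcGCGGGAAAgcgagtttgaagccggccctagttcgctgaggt
Tk1: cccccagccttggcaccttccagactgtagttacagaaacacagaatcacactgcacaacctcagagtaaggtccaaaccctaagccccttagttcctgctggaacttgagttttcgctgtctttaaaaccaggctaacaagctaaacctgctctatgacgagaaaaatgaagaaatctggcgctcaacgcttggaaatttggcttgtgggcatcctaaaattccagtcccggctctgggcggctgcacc
Mcm5 carried a pair of overlapping matches on opposite strands at -153 to -146 and -149 to -142 from the start. Mcm6 carried such a pair at -110 to -103 and -106 to -99, and 1 more match at -47 to -40. Gins3 carried 1 match, at -41 to -34, and Tk1 had none of these letters in its window. On depletion of bone-associated cells, described below, Mcm5, Mcm6 and Tk1 fell and Gins3 did not pass the test, so genes with and without a match were among those that fell. Of the 15 genes with a match 14 were called lower on depletion (median log2 fold change -1.72). Of the 20 without a match 14 were called lower (median -1.06), as were 6 of the 8 genes with no entry (median -0.93). Over all genes tested 19.9% were called lower, with a median of 0.05. Whether a match went with the size of the fall was not tested. A match is a stretch of letters and not a shown binding site.

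The libraries held 27937709 to 32164725 counts each, and levels below are CPM, the count of a gene relative to the size of its library after scaling by the TMM method. Tests are edgeR's quasi-likelihood F test with Benjamini-Hochberg adjustment over all 15698 genes, a gene is called at an adjusted p under 0.05, and log2 fold changes carry a standard error (SE). The 10 stromal markers, led by the collagen genes Col1a1 and Col1a2, summed to 41566 to 44064 CPM in BM sorted, 29760 to 35649 in BM nonsorted, 13834 to 24123 in BAC depleted and 35472 to 48083 in BAC nondepleted. Not all were high in every group: Lum averaged 0.325 CPM in BM sorted, 0.266 in BM nonsorted, 175 in BAC depleted and 488 in BAC nondepleted. The 15 macrophage markers summed to 13.3 to 15.3 CPM in BM sorted, 5175 to 5872 in BM nonsorted, 26.0 to 75.4 in BAC depleted and 13110 to 14836 in BAC nondepleted. In BAC depleted 7 of the 15, among them Ptprc (CD45) and C1qa, were at 0 in all libraries, and in the other groups none was. Mitochondrial transcripts took 1.82 to 2.62% of counts in BAC depleted and 1.08 to 1.36% in the other libraries. BAC depleted 1 stood apart, with 43406 counts of Xist, which acts on the inactive X chromosome, and 0 of the Y-linked Ddx3y, while the other 11 libraries had at most 16 counts of Xist and 2484 to 5846 of Ddx3y. In bulk samples fewer cells of a type and less RNA per cell cannot be told apart.

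The replication genes were at their lowest in BAC depleted. Summed over the 43, they reached 1323 ± 218 CPM in BM sorted, 1354 ± 191 in BM nonsorted, 473 ± 80.8 in BAC depleted and 1044 ± 156 in BAC nondepleted (SD, n = 3 each). The 3 BAC depleted libraries, at 444, 564 and 410 CPM, lay below all other 9, which ran from 924 to 1562 CPM. Of the 43 genes 42 had their lowest group mean in BAC depleted, the exception being Gins3. The highest mean was in BM sorted for 16, in BM nonsorted for 17 and in BAC nondepleted for 10.

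**Figure D1:**
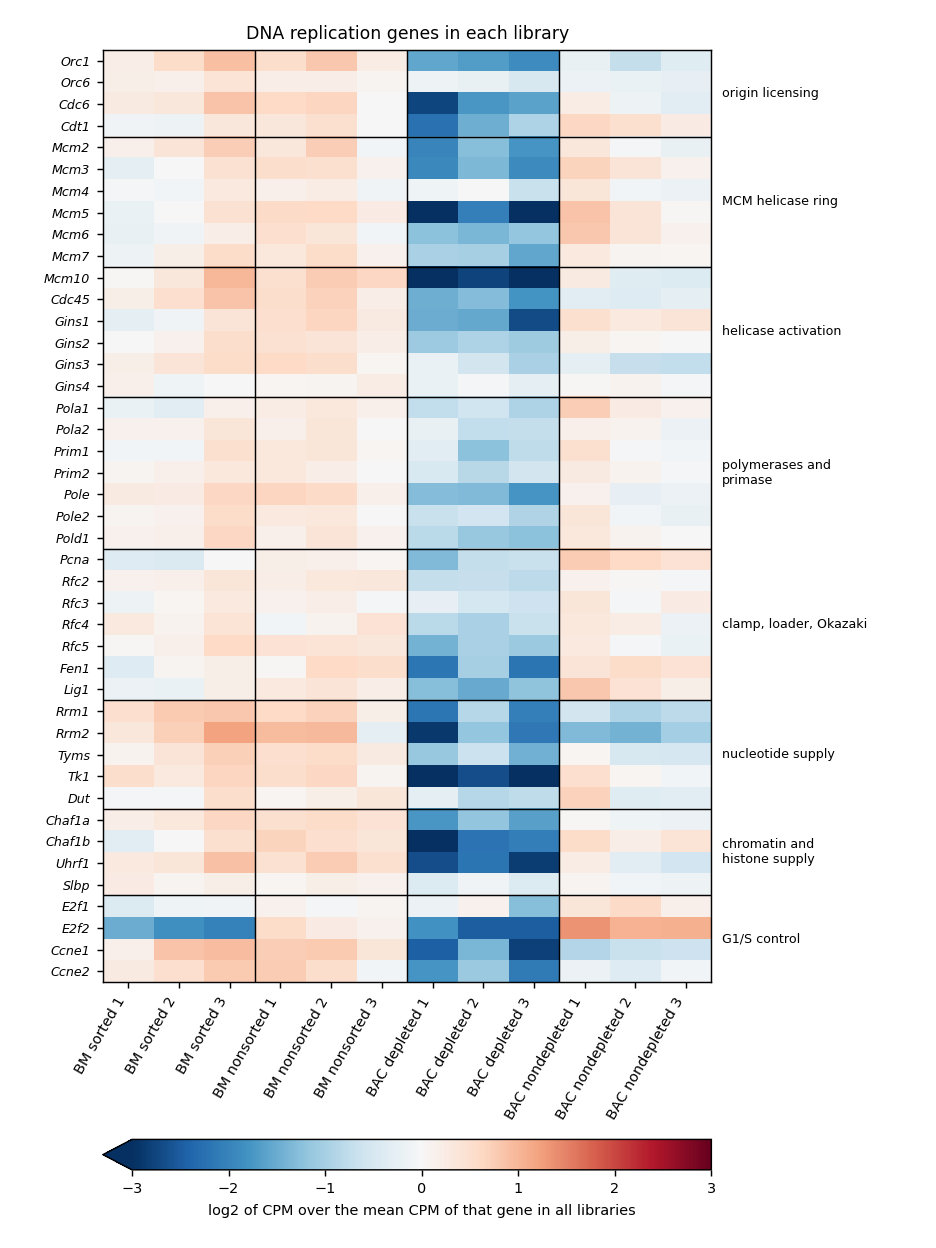
Level of each of the 43 genes (rows, by role) in each of the 12 libraries (columns), as log2 of its CPM over its mean CPM in all libraries, with values under -3 shown in the darkest blue. Blue fills the 3 BAC depleted columns, except for genes such as Orc6, Mcm4 and Gins4, and E2f2 is also blue in BM sorted.

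Libraries of 1 group moved much of the list together. BM sorted 3 had the highest level of its group for 40 of the 43 genes, and BAC nondepleted 1 for 36. BM nonsorted 3 had the lowest of its group for 34, and BAC nondepleted 3 for 30. In BAC depleted the libraries were less ordered, with BAC depleted 2 highest for 23 genes, BAC depleted 1 for 13 and BAC depleted 3 for 7. The coefficient of variation within a group had a median over the genes of 19.2% in BM sorted, 12.5% in BM nonsorted, 23.2% in BAC depleted and 14.2% in BAC nondepleted, and was largest for Mcm5 in BAC depleted, at 68.8%.

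**Figure D2:**
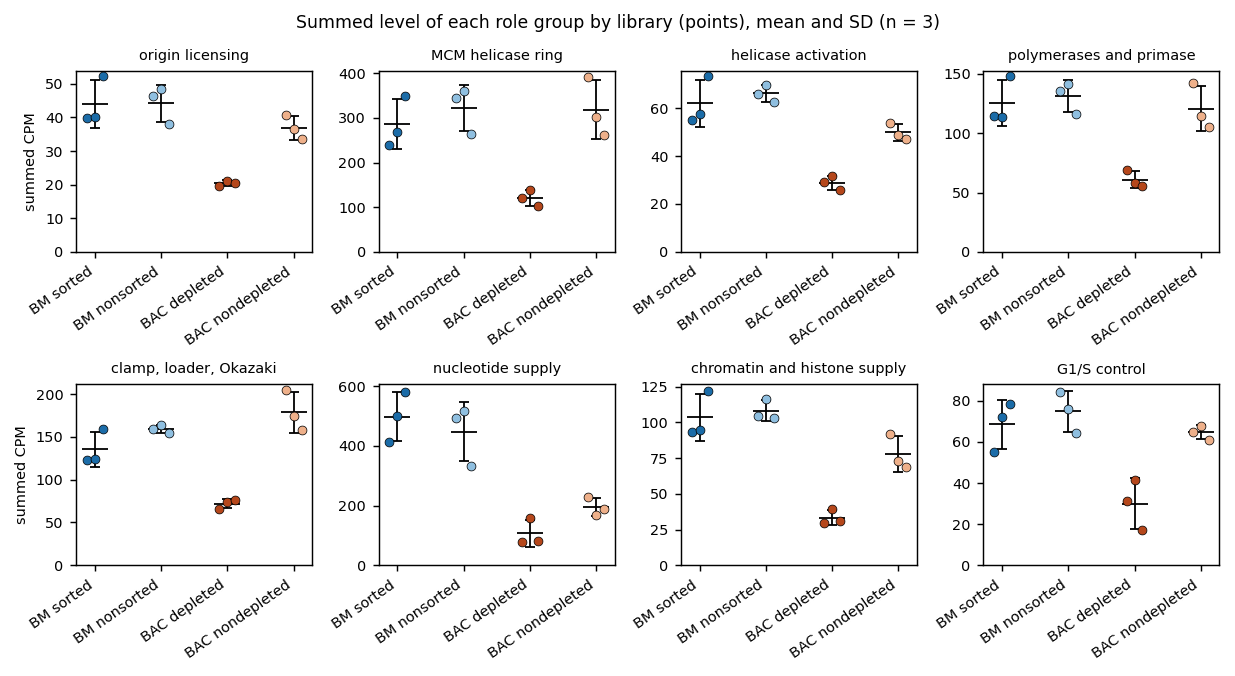
Summed CPM of the genes of each of 8 roles in each library (points), with the group mean and SD (n = 3) in black. In every role the BAC depleted libraries lie below those of the other groups, and in nucleotide supply BAC nondepleted, at 170 to 230 CPM, lies below both marrow groups as well.

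The sums by role repeated this order with differences in size. The MCM ring genes summed to 121 ± 18.6 CPM in BAC depleted and 319 ± 66.0 in BAC nondepleted, a 2.64-fold lower mean after depletion. Origin licensing genes summed to 20.4 ± 0.851 CPM in BAC depleted and 36.9 ± 3.59 in BAC nondepleted, 1.81-fold lower. In nucleotide supply the sum was 498 ± 83.3 CPM in BM sorted, 447 ± 99.8 in BM nonsorted, 107 ± 45.2 in BAC depleted and 196 ± 31.0 in BAC nondepleted.

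BAC depleted were set against BAC nondepleted to see what the removal of CD45, Ly6C and F4/80 positive cells left behind. Replication RNA was at a lower level in BAC depleted, with 34 of 43 genes called lower, 0 higher and 9 not called. Of all genes tested 19.9% were called lower and 17.4% higher. At an unadjusted p under 0.05, 38 genes were lower and 0 higher, against 7440 of all 15698 genes in either direction. The DESeq2 Wald test called 35 lower and 0 higher. BAC depleted libraries all lay below those of BAC nondepleted for 36 genes, against 24.9% of all genes, and all above for 0, against 21.4%. The median log2 fold change of the 43 was -1.19, against 0.05 over all genes tested, and 38 of the 43 lay below the lower quartile of all genes (-0.44). In size, 9 genes fell by more than 2 on the log2 scale (Mcm3, Mcm5, Mcm10, Gins1, Fen1, Tk1, Chaf1b, Uhrf1 and E2f2), 17 by 1 to 2, and 8 by less than 1. The genes not called were Orc6, Mcm4, Gins3, Gins4, Rrm1, Rrm2, Dut, Slbp and E2f1. The macrophage markers fell in the same comparison, all 15 of them, and the mitochondrial share was higher in all 3 BAC depleted libraries. The stromal markers summed to 19390 ± 5194 CPM in BAC depleted and 41436 ± 6333 in BAC nondepleted, with 2 of 10 called lower and 1 higher. The endothelial markers summed to 151 ± 161 and 34.2 ± 15.2 CPM (SD, n = 3 each). The part of any of these in the lower replication RNA was not tested. Without BAC depleted 1, 33 genes were called lower.

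**Figure D3:**
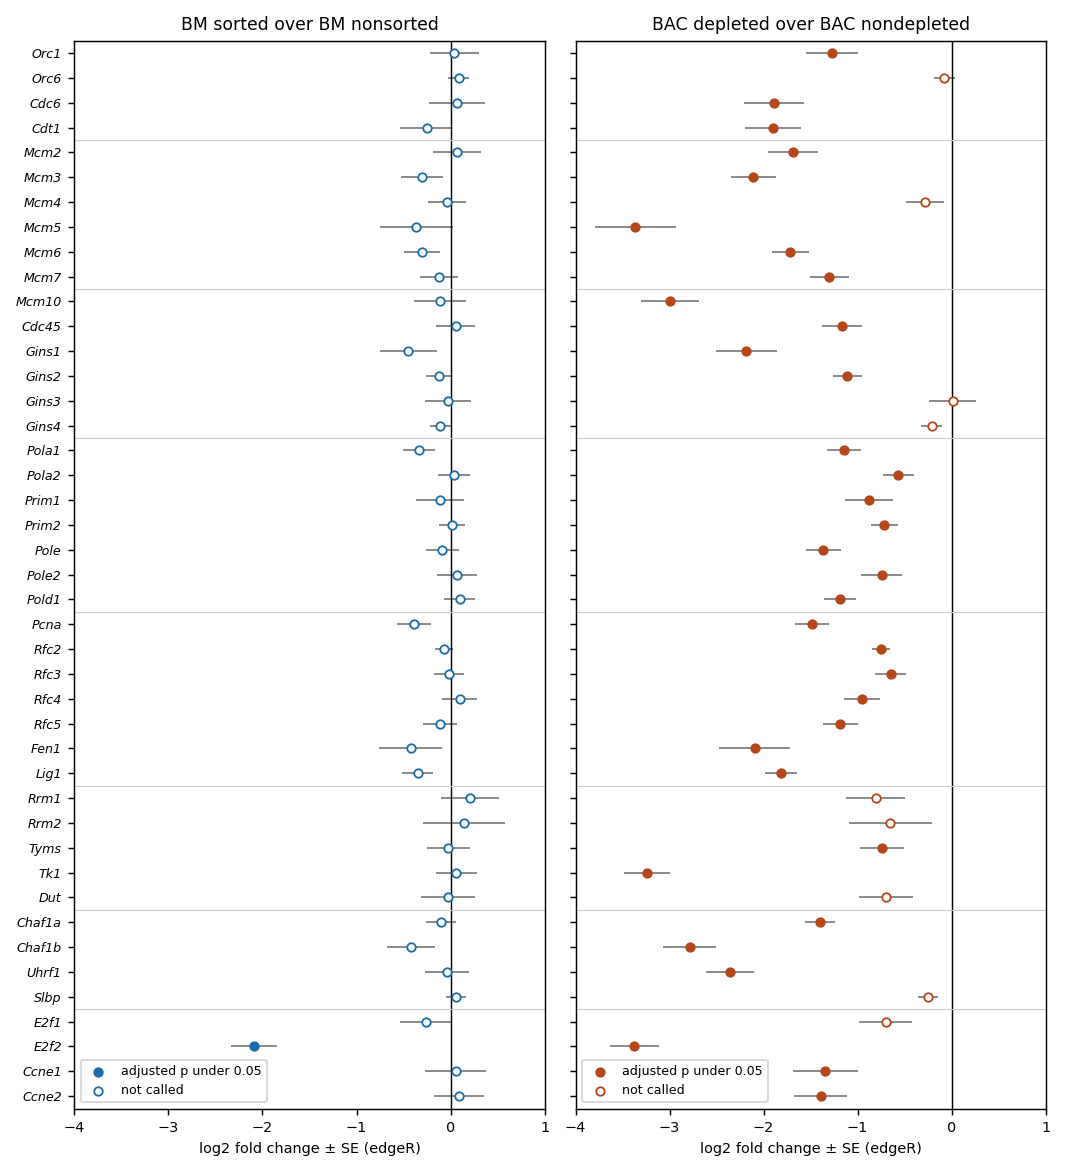
Log2 fold change with its SE for each of the 43 genes on sorting of marrow cultures (left, BM sorted over BM nonsorted) and on depletion of bone-associated cells (right, BAC depleted over BAC nondepleted), with called genes filled. On the left every gene but E2f2 lies between -0.45 and 0.20, and on the right 42 of 43 lie below 0.

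Among the origin licensing genes, Cdc6 and Cdt1, which load the helicase, and Orc1, a subunit of the origin recognition complex, were called lower, while the subunit gene Orc6 was not. Cdt1 had 2.10, 3.61 and 5.25 CPM in BAC depleted, against 15.2, 13.8 and 11.7 CPM in BAC nondepleted, with no overlap. It was 3.73-fold lower (log2 fold change -1.90 ± 0.30, adjusted p = 0.000806). Orc6 had 15.7, 14.9 and 12.5 CPM in BAC depleted, against 15.5, 15.2 and 14.8 CPM in BAC nondepleted, so the groups overlapped (-0.08 ± 0.11, adjusted p = 0.594). Cdc6 changed by -1.89 ± 0.32 (adjusted p = 0.0013) and Orc1 by -1.27 ± 0.28 (adjusted p = 0.00531).

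The MCM ring holds 6 different subunits, Mcm2 to Mcm7, 1 of each, and 5 of the 6 genes were called lower. Mcm5 had 2.26, 7.07 and 2.5 CPM in BAC depleted, against 53.2, 38.6 and 30.4 CPM in BAC nondepleted. The groups were far apart, and BAC depleted 2 was the highest of its group. Mcm5 was 10.3-fold lower (-3.37 ± 0.43, adjusted p = 0.000251). Mcm6 had 29.5, 27.1 and 31.3 CPM in BAC depleted, against 121, 91.4 and 76.5 CPM in BAC nondepleted (-1.72 ± 0.20, adjusted p = 0.000107), again with no overlap. Mcm4 had 53.7, 59.5 and 36.9 CPM in BAC depleted, against 75.4, 55.9 and 52.0 CPM in BAC nondepleted (-0.29 ± 0.20, adjusted p = 0.284), and its groups overlapped. Mcm3 (-2.11 ± 0.24), Mcm2 (-1.69 ± 0.27) and Mcm7 (-1.30 ± 0.21) lay between Mcm5 and Mcm4. The RNA of 1 ring thus differed by subunit, from no call to 10.3-fold.

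In helicase activation 4 of 6 genes were called lower. Mcm10, which helps the helicase start to unwind, had 0.763, 1.20 and 0.875 CPM in BAC depleted, against 10.0, 6.43 and 6.25 CPM in BAC nondepleted. It was 7.96-fold lower (-2.99 ± 0.31, adjusted p = 5.36e-05), with no overlap. The 4 subunits of GINS, a helicase cofactor, did not move together. Gins1 changed by -2.18 ± 0.32 (adjusted p = 0.000552) and Gins2 by -1.11 ± 0.15 (adjusted p = 0.000332). Gins3 had 3.63, 2.86 and 2.12 CPM in BAC depleted, against 3.46, 2.58 and 2.52 CPM in BAC nondepleted, and the groups overlapped fully (0.01 ± 0.25, adjusted p = 0.976). Gins4 had 16.2, 18.2 and 15.3 CPM in BAC depleted, against 19.1, 20.3 and 18.3 CPM in BAC nondepleted. Its libraries just separated, and the test did not call it (-0.21 ± 0.11, adjusted p = 0.141). Cdc45, the remaining helicase cofactor, was called lower (-1.16 ± 0.21, adjusted p = 0.00204).

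**Figure D4:**
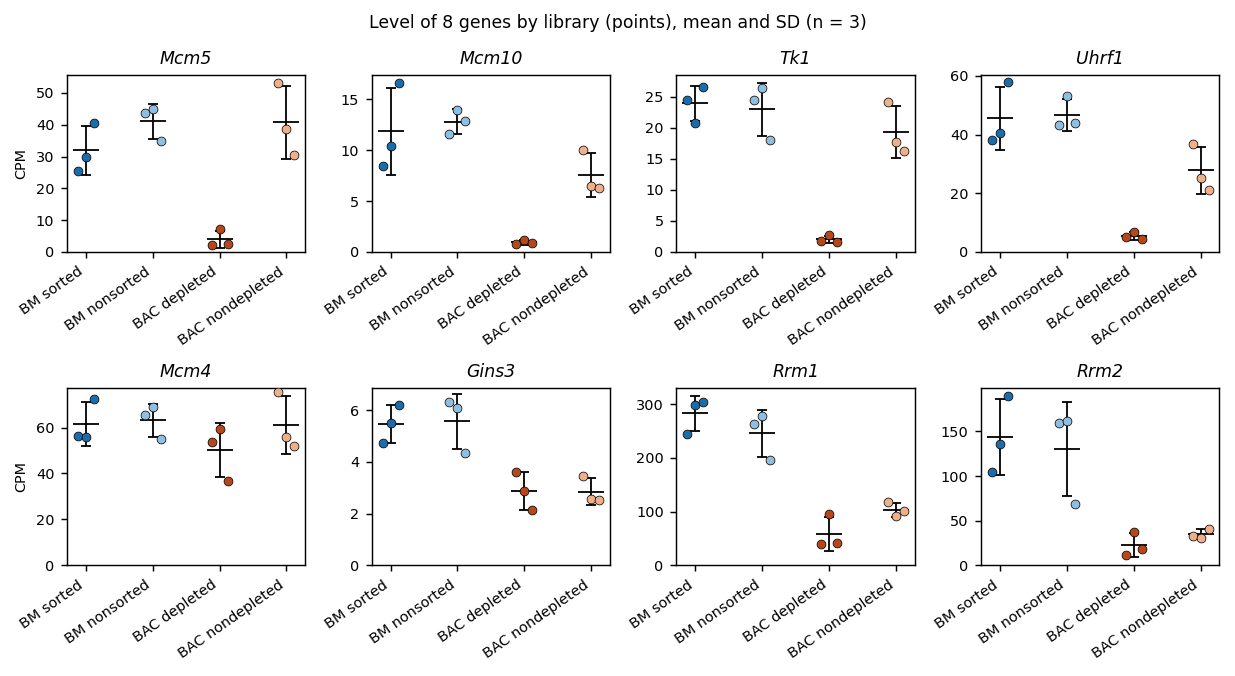
CPM of 8 genes in each library (points), with the group mean and SD (n = 3) in black. Mcm5, Mcm10, Tk1 and Uhrf1 (top) are lower in BAC depleted than in every other library, Uhrf1 is also lower in BAC nondepleted than in both marrow groups, Mcm4 overlaps between groups, and Gins3, Rrm1 and Rrm2 (bottom) are low in both groups of bone-associated cells.

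All 7 polymerase and primase genes were called lower, by less than the largest falls elsewhere. Pole, the catalytic subunit of polymerase epsilon on the leading strand, had 7.70, 7.6 and 5.62 CPM in BAC depleted, against 20.8, 16.2 and 16.8 CPM in BAC nondepleted (-1.36 ± 0.18, adjusted p = 0.000315). Pola1, the catalytic subunit of polymerase alpha, had 14, 15.5 and 12.3 CPM in BAC depleted, against 39.0, 27.7 and 25.6 CPM in BAC nondepleted (-1.14 ± 0.18, adjusted p = 0.000722). Neither gene's groups overlapped. Pola2, the accessory subunit of polymerase alpha, had 13.2, 9.19 and 9.33 CPM in BAC depleted, against 16.9, 16.5 and 13.6 CPM in BAC nondepleted (-0.57 ± 0.17, adjusted p = 0.0237). Its call was lost without BAC depleted 2 or 3 or BAC nondepleted 1 or 2, with upper quartile scaling and in the fit of the compared groups alone, with adjusted p up to 0.0979. Pold1, the catalytic subunit of polymerase delta, fell by 1.19 ± 0.17 (adjusted p = 0.000451). Of the others Prim2, the large primase subunit, kept its call in every alternative fit. Prim1, the catalytic primase subunit, lost it without BAC depleted 2 or BAC nondepleted 1, and Pole2, an epsilon subunit, without BAC depleted 3 or BAC nondepleted 1. In the fit of BAC depleted and BAC nondepleted alone, neither Prim1 nor Pole2 was called, with adjusted p up to 0.087.

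The clamp, clamp loader and Okazaki fragment genes were called lower as well, 7 of 7. Pcna, the sliding clamp, had 20.5, 31.2 and 32.3 CPM in BAC depleted, against 87.1, 77.7 and 69.6 CPM in BAC nondepleted (-1.48 ± 0.18, adjusted p = 0.000167). Lig1, which seals Okazaki fragments, changed by -1.82 ± 0.17 (adjusted p = 2.61e-05). The loader subunits changed less, from -0.65 ± 0.16 for Rfc3 (adjusted p = 0.0112) to -1.19 ± 0.19 for Rfc5 (adjusted p = 0.000844). Rfc3 had 9.51, 7.81 and 7.29 CPM in BAC depleted, against 14.5, 10.9 and 13.3 CPM in BAC nondepleted, with no overlap, but was not called in the fit of these groups alone (adjusted p = 0.0571). Fen1, the flap nuclease, had the lowest total count of the list, with 4, 8 and 3 counts in BAC depleted, against 22, 23 and 20 counts in BAC nondepleted (-2.10 ± 0.37, adjusted p = 0.00172). In the GENCODE M21 annotation of GRCm38, 78.8% of its exon bases lie opposite another gene, Gm10143. For Gins2 the share is 67.3% (Gse1) and for Chaf1a 52.5% (Ubxn6), and at 10.7 to 17.4% it is smaller for Ccne2, Rfc2, Rfc4, Rfc5 and Orc1. Since the sources used here do not say whether counting used strand, the counts of these genes are uncertain.

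In nucleotide supply the salvage enzyme was called lower, while the reductase subunits had smaller negative changes that were not called. Tk1, cytosolic thymidine kinase, had 1.81, 2.69 and 1.62 CPM in BAC depleted, against 24.1, 17.7 and 16.2 CPM in BAC nondepleted. With no overlap and a small spread, Tk1 had the lowest adjusted p of the 43 genes (9.46-fold lower, -3.24 ± 0.24, adjusted p = 4.89e-06). Rrm1, the large subunit of ribonucleotide reductase, had 38.6, 95.6 and 41.5 CPM in BAC depleted, against 117, 90.9 and 100 CPM in BAC nondepleted (-0.81 ± 0.31, adjusted p = 0.0652). Rrm2, its small subunit, had 11.2, 37.2 and 18.6 CPM in BAC depleted, against 33.3, 31.0 and 41.0 CPM in BAC nondepleted (-0.65 ± 0.44, adjusted p = 0.267). For both subunits BAC depleted 2 alone reached the range of BAC nondepleted. Without that library both were called lower, Rrm1 at -1.36 (adjusted p = 0.000477) and Rrm2 at -1.24 (adjusted p = 0.0403). Rrm1 was also called lower by the DESeq2 Wald test (-0.80, adjusted p = 0.0375) and with the replicate block (-0.90, adjusted p = 0.0499). Tyms, which makes thymidylate, was called (-0.74 ± 0.24, adjusted p = 0.0317) and lost its call without BAC depleted 1 or 3 or BAC nondepleted 1, and in the fit of the compared groups alone. Dut, which removes dUTP, was not called (-0.70 ± 0.29, adjusted p = 0.0828), and BAC nondepleted 1, at 41.0 CPM, stood above 19.9 and 20.1 CPM in the rest of its group.

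Of the chromatin genes, both measured subunits of the histone chaperone CAF-1 fell. Chaf1b had 0.986, 1.73 and 1.92 CPM in BAC depleted, against 11.8, 9.23 and 10.8 CPM in BAC nondepleted (6.89-fold lower, -2.78 ± 0.28, adjusted p = 4.3e-05). Chaf1a changed by -1.40 ± 0.16 (adjusted p = 0.000123). Uhrf1, which guides DNA methylation onto new DNA, had 4.96, 6.86 and 4.37 CPM in BAC depleted, against 36.9, 25.2 and 21.2 CPM in BAC nondepleted (5.14-fold lower, -2.36 ± 0.26, adjusted p = 7.33e-05). None of these 3 genes' groups overlapped. Slbp, which binds histone messenger RNA, had 19.2, 23.8 and 19.3 CPM in BAC depleted, against 27.3, 24.1 and 23.0 CPM in BAC nondepleted, with overlap (-0.25 ± 0.11, adjusted p = 0.092).

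Of the E2F factors among the G1/S control genes, E2f2 was called lower and E2f1 was not. E2f2, an activating E2F, had 1.18, 0.743 and 0.750 CPM in BAC depleted, against 10.6, 8.61 and 8.69 CPM in BAC nondepleted, the groups lying far apart. It was 10.4-fold lower (-3.37 ± 0.26, adjusted p = 5.95e-06). E2f1, another activating E2F, had 22.8, 28.3 and 10.7 CPM in BAC depleted, against 33.2, 38.6 and 28.8 CPM in BAC nondepleted (-0.70 ± 0.28, adjusted p = 0.0742). The E2f1 libraries just separated, and without BAC depleted 2 the gene was called (-1.0, adjusted p = 0.0183), as was Slbp (-0.37, adjusted p = 0.0212). Ccne1 and Ccne2 encode cyclin E, the partner of Cdk2 at the start of S phase, and changed by -1.34 ± 0.34 (adjusted p = 0.0118) and -1.39 ± 0.28 (adjusted p = 0.00342). The Ccne1 call was lost in the fit of the compared groups alone (adjusted p = 0.0621).

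BM sorted were likewise set against BM nonsorted, and E2f2 alone was called. Of the 43 genes 0 were higher, 1 was lower and 42 were not called, against 0.166% of all genes called higher and 6.06% lower. At an unadjusted p under 0.05 the counts were also 0 higher and 1 lower, against 2346 of all 15698 genes in either direction. The DESeq2 Wald test gave 0 and 1. The median log2 fold change was -0.04, against 0.00 over all genes, and was 0.04 with upper quartile scaling. E2f2 had 1.48, 1.17 and 1.01 CPM in BM sorted, against 6.12, 4.96 and 4.54 CPM in BM nonsorted, with no overlap (-2.09 ± 0.25, adjusted p = 0.00026). The groups also failed to overlap, lower in BM sorted, for Pola1, Pcna, Lig1 and E2f1, which makes 5 of 43 genes, against 16.7% of all genes. None of those 4 was called; Pcna had 39.2, 38.3 and 51.9 CPM in BM sorted, against 58.6, 57.5 and 53.5 CPM in BM nonsorted (-0.39 ± 0.18, adjusted p = 0.343).

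After E2f2, the genes with the largest falls on depletion were Mcm5, Tk1 and Mcm10, and none of these 3 was called on sorting. Mcm5 had 25.5, 29.8 and 40.5 CPM in BM sorted, against 43.6, 44.9 and 34.9 CPM in BM nonsorted (-0.36 ± 0.39, adjusted p = 0.778). Tk1 had 24.5, 20.9 and 26.5 CPM in BM sorted, against 24.5, 26.4 and 18.1 CPM in BM nonsorted (0.06 ± 0.22, adjusted p = 0.957). Mcm10 had 8.46, 10.5 and 16.6 CPM in BM sorted, against 11.6, 14 and 12.8 CPM in BM nonsorted (-0.11 ± 0.27, adjusted p = 0.927). The groups overlapped for all 3 genes, and BM sorted 3 was the highest library of its group each time. A missed threshold does not show that levels were equal, and the SE of the 43 log2 fold changes ran from 0.09 to 0.43.

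E2f2 was the 1 gene of the list called lower by both purifications. Its mean was 1.22 ± 0.237 CPM in BM sorted, against 5.2 ± 0.821 CPM in BM nonsorted. In bone-associated cells it was 0.890 ± 0.248 CPM in BAC depleted, against 9.29 ± 1.11 CPM in BAC nondepleted (SD, n = 3 each). The summed macrophage markers had the higher level in the same unpurified groups, and more of it in BAC nondepleted. In BM nonsorted against BAC nondepleted E2f2 was also called lower (-0.84 ± 0.23, adjusted p = 0.0219). Whether macrophages carried this RNA was not tested. E2f1 had 19.5, 23.6 and 23.9 CPM in BM sorted, against 28.3, 24.9 and 27.1 CPM in BM nonsorted (-0.26 ± 0.28, adjusted p = 0.783).

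**Figure D5:**
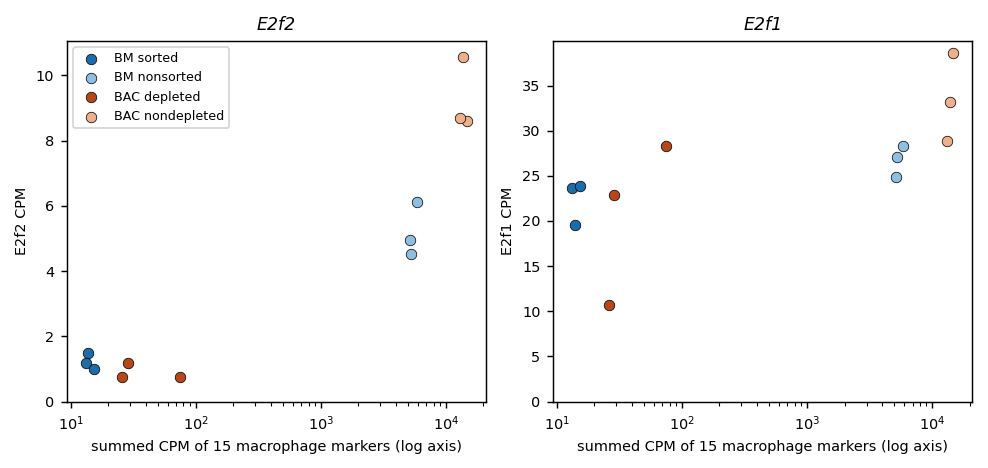
CPM of E2f2 (left) and E2f1 (right) in each of the 12 libraries against the summed CPM of 15 macrophage markers (log axis), coloured by group. E2f2 stays at 0.743 to 1.48 CPM in the 6 purified libraries and at 4.54 to 10.6 CPM in the 6 unpurified ones, whereas E2f1 ranges from 10.7 to 28.3 CPM in the purified libraries and from 24.9 to 38.6 CPM in the unpurified ones.

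The 2 purifications were then compared with each other, as the sorting effect minus the depletion effect in 1 model. They differed both in method and in the cells they were applied to, which cannot be told apart here. A positive value means that a gene's log2 fold change on depletion lay below that on sorting. This difference was called positive for 25 of the 43 genes and negative for 0, against 5.08% of all genes called positive and 2.99% negative. The median was 1.18, against -0.06 over all genes. At an unadjusted p under 0.05 the count was 33, against 4027 of all 15698 genes in either direction. The DESeq2 Wald test called 28. The largest differences were those of Tk1 (3.30 ± 0.32, adjusted p = 0.000901), Mcm5 (3.0 ± 0.57, adjusted p = 0.0144) and Mcm10 (2.88 ± 0.41, adjusted p = 0.00428). By role the calls numbered 5 of 6 in the MCM ring, 5 of 7 for the clamp and Okazaki genes, 4 of 6 in helicase activation, 3 of 7 polymerase genes, 3 of 4 chromatin genes, 2 of 4 licensing genes, 2 of 4 control genes and 1 of 5 in nucleotide supply. E2f2, called lower in both purified groups, differed by a call (1.28 ± 0.34, adjusted p = 0.0478). That call was lost in 13 of 18 alternative fits, with adjusted p up to 0.109. Those were upper quartile scaling, no low-count filter and each library left out except BAC depleted 1. Of the 25 calls 11 held in every alternative. Gins3 was the 1 gene with a negative value (-0.04 ± 0.35, adjusted p = 0.969). The count was sensitive to single libraries: 16 without BM sorted 2, 12 without BM sorted 3, 13 without BM nonsorted 1 or 2, 14 without BM nonsorted 3, and 13 without BAC nondepleted 1 or 2. With the replicate block it was 14.

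Purified marrow stroma was compared with purified bone-associated stroma to set the replication RNA of both sources side by side. It was higher in BM sorted than in BAC depleted for 39 of 43 genes, lower for 0, and not called for Mcm4, Gins4, E2f1 and E2f2. Of all genes 22.9% were called higher and 24.6% lower. The DESeq2 Wald test also called 39 higher and 0 lower. At an unadjusted p under 0.05 the counts were 39 and 0, against 8534 of all 15698 genes in either direction. The median was 1.37, against -0.02 over all genes, and the libraries of 39 genes did not overlap, against 26.4% of all genes in this direction. The BAC depleted libraries are those of the depletion comparison, so the results of both are not independent.

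The highest ratios between the purified groups belonged to genes of several roles. Mcm10 was 12.5-fold higher in BM sorted (3.64 ± 0.32, adjusted p = 3.57e-05) and Tk1 11.7-fold (3.55 ± 0.25, adjusted p = 2.2e-05). Uhrf1 had 38.3, 40.4 and 57.8 CPM in BM sorted, against 4.96, 6.86 and 4.37 CPM in BAC depleted (3.07 ± 0.26, adjusted p = 3.46e-05), with no overlap. The reductase subunits, not called on depletion, were called here. Rrm2 had 105, 136 and 190 CPM in BM sorted, against 11.2, 37.2 and 18.6 CPM in BAC depleted (6.44-fold higher, 2.69 ± 0.46, adjusted p = 0.00119). Rrm1 had 244, 299 and 304 CPM in BM sorted, against 38.6, 95.6 and 41.5 CPM in BAC depleted (4.82-fold higher, 2.27 ± 0.32, adjusted p = 0.00043). Ccne1 had 15.9, 26.2 and 27.4 CPM in BM sorted, against 2.64, 5.59 and 2.08 CPM in BAC depleted (2.75 ± 0.35, adjusted p = 0.000233).

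Other genes differed little between the purified groups. Slbp, among the smallest called ratios, was 1.39-fold higher in BM sorted (0.47 ± 0.11, adjusted p = 0.00547) and Orc6 1.45-fold (0.53 ± 0.11, adjusted p = 0.00328). Gins3 had 4.73, 5.51 and 6.19 CPM in BM sorted, against 3.63, 2.86 and 2.12 CPM in BAC depleted (0.93 ± 0.25, adjusted p = 0.0117), so it separated the purified sources. Mcm4 had 56.3, 56.0 and 72.5 CPM in BM sorted, against 53.7, 59.5 and 36.9 CPM in BAC depleted, with overlap (0.30 ± 0.20, adjusted p = 0.245). The call for Dut (0.78 ± 0.29, adjusted p = 0.0471) was lost without any 1 of BM sorted 1, 2 or 3 or BAC depleted 2 or 3. That for Rfc3 was lost without BM sorted 2 or 3 or BAC depleted 2 or 3, that for Prim1 without BM sorted 3 or BAC depleted 2, and those for Pcna and Pola1 without BM sorted 3. In the fit of the compared groups alone those for Rfc3, Prim1 and Pcna were lost. E2f2 was called without BAC depleted 1 (0.70, adjusted p = 0.0364), against 0.45 ± 0.25 with it (adjusted p = 0.168). Genes that respond to tissue dissociation, such as Fos, summed to 327 to 425 CPM in BM sorted. In BAC depleted the sum was 876 CPM in library 1, 8945 CPM in library 2 and 11133 CPM in library 3. The part of these genes in the differences was not tested.

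Unpurified marrow cultures were compared with unpurified bone-associated cells as the matching contrast before purification. Fewer replication genes were called here than between the purified groups. Of the 43 genes 11 were called higher in BM nonsorted than in BAC nondepleted, 1 lower and 31 neither way. Of all genes 14.9% were called higher and 16.8% lower, so the list held a larger share of higher calls and a smaller share of lower ones. The median was 0.16, against -0.01 over all genes. The libraries did not overlap, with BM nonsorted higher, for 16 genes, against 27.3% of all genes, and with BM nonsorted lower for 3, against 28.7%. The 11 higher genes were Orc1, Orc6, Cdc45, Gins3, Pole, Rrm1, Rrm2, Tyms, Chaf1a, Uhrf1 and Ccne1, and the lower one was E2f2. None of the 6 MCM ring genes was called, with log2 fold changes from -0.19 to 0.32. At an unadjusted p under 0.05 the ring also gave 0, against 6826 of all 15698 genes in either direction.

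Nucleotide supply held the largest of these differences. Rrm2 had 159, 162 and 69.0 CPM in BM nonsorted, against 33.3, 31.0 and 41.0 CPM in BAC nondepleted (3.71-fold higher, 1.89 ± 0.45, adjusted p = 0.0116). Rrm1 had 263, 278 and 196 CPM in BM nonsorted, against 117, 90.9 and 100 CPM in BAC nondepleted (2.39-fold higher, 1.26 ± 0.31, adjusted p = 0.014). Both were apart without overlap, and BM nonsorted 3 was the lowest of its group. Ccne1 had 23.9, 24.7 and 18.4 CPM in BM nonsorted, against 7.82, 9.01 and 9.38 CPM in BAC nondepleted (2.56-fold higher, 1.35 ± 0.33, adjusted p = 0.0131). Gins3 had 6.31, 6.07 and 4.36 CPM in BM nonsorted, against 3.46, 2.58 and 2.52 CPM in BAC nondepleted (0.97 ± 0.25, adjusted p = 0.016). In contrast Tk1 had 24.5, 26.4 and 18.1 CPM in BM nonsorted, against 24.1, 17.7 and 16.2 CPM in BAC nondepleted, with overlap (0.25 ± 0.22, adjusted p = 0.408). E2f2 had 6.12, 4.96 and 4.54 CPM in BM nonsorted, against 10.6, 8.61 and 8.69 CPM in BAC nondepleted.

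Most of these calls were lost in at least 1 fit with a library left out, and which library mattered varied by gene. Of the 12 calls, 0 changed sign in any alternative fit. The 11 numbered 4 without BM nonsorted 1, 2 without BM nonsorted 2 or without BAC nondepleted 2, and 5 without BAC nondepleted 3, and Rrm2 was the 1 gene called in every alternative fit. The E2f2 call was lost without BM nonsorted 2 or 3 or BAC nondepleted 1 or 2, with adjusted p up to 0.0818. The macrophage markers were higher in BAC nondepleted than in BM nonsorted, and dissociation-response genes summed to 891 to 1029 CPM in BM nonsorted and 4665 to 7415 CPM in BAC nondepleted. The part of either was not tested.

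Other genes of the pathway, from lists outside the 43, were counted in the same comparisons. On depletion, 19 of 30 other fork and origin genes were called lower and 1 higher (median log2 fold change -0.65), against 19.9% and 17.4% of all genes. Clspn, a mediator of the replication checkpoint, averaged 2.47 ± 0.625 CPM in BAC depleted and 15.2 ± 2.89 in BAC nondepleted (-2.62 ± 0.26, adjusted p = 3.55e-05). Pold2, a polymerase delta subunit, was the 1 called higher (0.40 ± 0.11, adjusted p = 0.0147), while Pold1, the catalytic subunit, was called lower. Rpa1, which coats single-stranded DNA, averaged 77.6 ± 15 CPM in BAC depleted and 80.3 ± 8.09 in BAC nondepleted and was not called (-0.05 ± 0.15, adjusted p = 0.815). Of 8 other chromatin replication genes 5 were called lower and 1 higher, read against the same shares. The calls in both directions included 2 paralogs of a histone chaperone, Asf1b at -3.32 ± 0.39 (adjusted p = 0.000131) and Asf1a at 0.48 ± 0.14 (adjusted p = 0.0199).

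Of 10 other nucleotide supply genes 2 were called lower on depletion and 1 higher, shares near or below those of all genes (19.9% lower and 17.4% higher), and the DESeq2 Wald test called 4 lower and 1 higher. Dck, deoxycytidine kinase of the salvage route, averaged 10.2 ± 3.18 CPM in BAC depleted and 66.9 ± 13.0 in BAC nondepleted (-2.72 ± 0.22, adjusted p = 8.8e-06). Rrm2b, the p53-inducible small subunit of ribonucleotide reductase that serves cells outside S phase, averaged 44.4 ± 4.26 CPM in BAC depleted and 20.0 ± 1.01 in BAC nondepleted (1.15 ± 0.11, adjusted p = 2.68e-05). It moved opposite to Tk1 and, unlike Rrm2, was called. Rrm2b was also lower in BM sorted, at 16.9 ± 1.40 CPM, than in BAC depleted (-1.39 ± 0.11, adjusted p = 2.93e-05).

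Of 18 E2F, RB and cyclin genes 9 were called lower on depletion, against 19.9% of all genes, and 3 higher, a share near the 17.4% of all genes. E2f7, a repressor E2F that is itself an E2F target, averaged 0.587 ± 0.449 CPM in BAC depleted and 5.89 ± 0.945 in BAC nondepleted (-3.31 ± 0.43, adjusted p = 0.000279). Ccnd2, a D-type cyclin, averaged 1074 ± 486 CPM in BAC depleted and 266 ± 55.0 in BAC nondepleted (2.01 ± 0.32, adjusted p = 0.000803). Of 7 CDK inhibitors 3 were called higher and 2 lower, too few to set against those shares. Cdkn1c, which encodes p57, averaged 27.1 ± 4.86 CPM in BAC depleted and 8.37 ± 7.46 in BAC nondepleted (1.69 ± 0.56, adjusted p = 0.0363), and Cdkn2c, which encodes p18, was called lower (-0.74 ± 0.22, adjusted p = 0.0236). All 20 mitosis genes were called lower, with a median of -2.64, and Birc5, an inhibitor of apoptosis that acts in chromosome segregation, fell by 3.44 ± 0.47 (adjusted p = 0.000376).

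On sorting, edgeR called 6.06% of all genes lower and 0.166% higher. Over these 6 lists 1 gene was called by edgeR, and the DESeq2 Wald test called 1 E2F, RB and cyclin gene lower and 1 CDK inhibitor higher. Cdk6, the D-type cyclin partner, averaged 14.4 ± 2.74 CPM in BM sorted, against 50.4 ± 10.9 CPM in BM nonsorted (-1.81 ± 0.23, adjusted p = 0.000406). The mitosis list gave 0 of 20 calls there by edgeR, 0 at an unadjusted p under 0.05 and 0 by the DESeq2 Wald test. A list of 20 is too short to set 0 calls apart from the shares of all genes. Between the purified groups all 20 mitosis genes were higher in BM sorted than in BAC depleted, with a median of 3.48, against 22.9% of all genes called higher there. Between the unpurified groups 9 of the 20 were called higher in BM nonsorted than in BAC nondepleted, against 14.9% of all genes. At an unadjusted p under 0.05 were 12, against 6826 of all 15698 genes in either direction. The libraries did not overlap for all 20, with BM nonsorted higher, against 27.3% of all genes. Rbl2, which encodes the retinoblastoma relative p130, averaged 35.9 ± 5.67 CPM in BM sorted, against 106 ± 4.87 CPM in BAC depleted (-1.56 ± 0.12, adjusted p = 2.24e-05).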

How the data were processed

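RNA from mouse stromal preparations was sequenced from 50 ng of total RNA per library with a low-input kit, per the labels. The deposited table holds the authors' raw read counts per gene. They list GRCm39 as build, and STAR 2.7.9a, MultiQC 1.7, Subread 2.0.1 and featureCounts as software, per the submitters' processing notes. For the annotation release and the strand setting, nothing is given in the sources used here.

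From these counts edgeR 4.0.16 (R 4.3.3) gave all tests: TMM scaling, filterByExpr, 1 quasi-likelihood model with a mean per group over all 12 libraries (8 residual degrees of freedom) and 5 contrasts, with Benjamini-Hochberg adjustment over 15698 genes. The steps were tested on simulated counts. Alternatives were DESeq2 1.42.0, other scalings and filters, fits of the compared groups alone, the replicate number as a block, and each library left out.

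The 43 genes, their roles and the other lists were chosen with earlier results of these data known. Per-library values were given, in each role, for the gene with the most counts and those with the largest and smallest absolute change on depletion, and for genes called on sorting or against the majority between unpurified groups; other genes are named by call or to complete a comparison. Cell type and pathway lists were read by counts of calls. The labels do not say whether libraries came from separate animals or cultures. Each p-value thus reflects the spread among these samples, which may be technical. In BAC depleted, Xist and Ddx3y set library 1 apart from 2 and 3, so those 3 did not all share 1 animal. Total counts were 27937709 to 32164725 per library, and precision also depended on the spread among the 3 libraries of a group. Granulocyte, lymphocyte and erythroid markers summed to at most 3.36 CPM in any library, and endothelial markers to 17.6 to 331 CPM.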

Additional observations from a re-analysis of the deposited data

Results flagged for a closer look

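The sorting effect minus the depletion effect (log2) was tested itself, by edgeR's quasi-likelihood test with adjusted p under 0.05. Sorting of marrow cultures and depletion of bone-associated cells differed in effect for 25 of the 43 genes. In origin licensing these were Cdc6 (1.96) and Cdt1 (1.65). In the MCM ring they were Mcm2 (1.76), Mcm3 (1.80), Mcm5 (3.0), Mcm6 (1.41) and Mcm7 (1.18), which left Mcm4 without a call. In helicase activation they were Mcm10 (2.88), Cdc45 (1.22), Gins1 (1.73) and Gins2 (0.99).

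Among the polymerase and primase genes Prim2 (0.73), Pole (1.27) and Pold1 (1.28) differed. Among the clamp, loader and Okazaki fragment genes Pcna (1.09), Rfc2 (0.69), Rfc4 (1.05), Rfc5 (1.07) and Lig1 (1.47) differed. In nucleotide supply Tk1 (3.30) differed, and among the chromatin genes Chaf1a (1.30), Chaf1b (2.36) and Uhrf1 (2.32). The control genes that differed were E2f2 (1.28) and Ccne2 (1.48). In all 25 the value was positive, so the log2 fold change on depletion lay below that on sorting. Purification method and cell source both differed between the 2, so their parts cannot be told apart. The 25 calls became 12 to 25 with 1 library left out and 14 with the replicate block, and 11 of them held in every alternative. Those of Prim2, Ccne2 and E2f2 were lost in 13, 12 and 13 of 18 alternative fits. Macrophage markers fell in both purifications and the mitochondrial share was raised in BAC depleted; their part in the differences was not tested.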

How the results depend on the processing

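The counts of calls for sorting, for depletion and for BM sorted over BAC depleted stayed within 1.5 times under all alternatives run. Leaving out 1 library gave 1 lower on sorting, 30 to 36 lower on depletion and 34 to 40 higher in BM sorted over BAC depleted. For BM nonsorted over BAC nondepleted the 11 higher became 5 with no low-count filter and 2 to 10 with 1 library left out. The 1 lower became 2 by the DESeq2 Wald test, 2 in the fit of the compared groups alone, and 0 to 1 with 1 library left out. The 25 differences between the purifications became 12 to 25 with 1 library left out and 14 with the replicate block. Of the calls, 1 of 1 on sorting, 28 of 34 on depletion, 34 of 39 between purified groups, 1 of 12 between unpurified groups and 11 of 25 differences held in every alternative, and 0 changed sign. The causes were not tested.

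Libraries of the same number in different groups showed no clear pairing. Their deviations correlated at -0.223 to 0.237 over 18 pairs, against -0.327 to 0.254 over 36 pairs of unlike number. A library's best match among the 3 of another group bore its number in 15 of 36 cases. Weak pairing is not excluded. Same-number pairs of BAC depleted with BAC nondepleted correlated at 0.237, 0.0439 and 0.0711. Those of BM sorted with BM nonsorted correlated at -0.223, 0.215 and -0.00827. BAC depleted 1 had 43406 counts of Xist and 0 of Ddx3y, against 2 and 4111 in BAC nondepleted 1. These libraries thus did not share an animal, although their correlation, 0.237, was the highest of the 18. With the replicate block the calls were 1 lower on sorting, 35 lower on depletion, 39 higher between purified groups and 8 higher between unpurified groups. The summed CPM under other scalings and with libraries left out was an alternative chosen after seeing the data. Under other scalings the group means stayed within 1 SD. They did so with 1 library left out too, but dropping 1 of 3 values can hardly move a mean by 1 SD. That part therefore says nothing about stability. Fen1, with 3 to 28 counts per library, is limited by depth.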
